A study of Mus musculus with 12 samples.

Results

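The comparison described here is the response of mouse bone marrow-derived macrophages to LPS (lipopolysaccharide, a component of the outer membrane of gram-negative bacteria) when no cholesterol acceptor was given beforehand. It rests on the 3 arrays labelled PBS with 6 h of LPS and the 3 arrays labelled PBS without LPS, 6 of the 12 arrays of the series. All cells came from the bone marrow of C57BL/6 mice aged 9 to 16 weeks and were differentiated for 8 to 9 days in 20% L929-conditioned medium, a source of the growth factor M-CSF. The LPS group was stimulated at 10 ng/ml for 6 h, and the other PBS group was not stimulated. The remaining 6 arrays hold cells that met either HDL (300 ug/ml over 24 h) or cyclodextrin (4% over 4 h) before the same LPS, and they entered the normalization and the estimate of the spread. No label says whether the 3 arrays of a group came from separate mice or cultures, so every p-value measures the spread between these arrays, which may be technical.

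LPS is sensed by Toll-like receptor 4, which works with the accessory proteins CD14 and MD-2. The receptor signals through the adaptor MyD88, which leads to NF-kB, MAP kinases and the rapid transcription of cytokine genes, and through the adaptor TRIF, which leads to IRF3 and interferon-beta. Secreted interferon then acts back on the cells through its receptor and turns on a large set of antiviral genes. Among the genes that LPS induces are inhibitors of the same pathways, so that the response limits itself. The purpose of the contrast, as the labels set it out, is the response to LPS in the cells that serve as the control for HDL and cyclodextrin.

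Among the lists of cell type markers, the macrophage list had the highest summed signal on all 6 arrays. Its sum ran over 10 genes, against at most 4 in any other list, so the sums are not like for like. The 10 macrophage markers with a probe on the array were detected on every array, with a summed signal of 83167 to 89065 without LPS and 108912 to 113221 with LPS, and 5 of them rose and 0 fell. The T cell markers Cd3e, Cd3g, Cd3d, Cd4 and Cd8a and the neutrophil markers Elane, Mpo and Mmp8 were detected on no array. Other types had single markers detected on all 6 arrays. Prf1 of NK cells was at 424 to 490 without and 529 to 602 with LPS, and Cd79b of B cells at 113 to 123 and 87 to 109. Pf4 of megakaryocytes was at 6743 to 9151 and 7470 to 8993. Itgax and Siglech (dendritic cell), Dcn (fibroblast) and Cdh5 (endothelial) were detected on all 3 LPS arrays but not on all without LPS. Detected on none of the 6 arrays were Ncr1 (NK cell), Ms4a1 and Pax5 (B cell), and Hba-a1 and Itga2b (erythroid and megakaryocyte). So were Flt3 and Xcr1 (dendritic cell) and Col1a1, Col1a2, Col3a1 and Lum (fibroblast). The summed signal of the 4 neutrophil markers that were measured was 540 to 649 without LPS and 836 to 915 with LPS. In the mast cell and basophil list it was 201 to 228 without LPS and 4915 to 5624 with LPS. The rise lay in Hdc, the histidine decarboxylase that makes histamine. Kit of the same list went the other way, detected only without LPS and at least 3.67-fold lower with LPS. Fcer1a did not pass (-0.15), and Cpa3, Mcpt4 and Mcpt8 were detected on no array. In RNA from whole cultures, fewer cells of a type and less RNA per cell cannot be told apart. Across genes, arrays of the same group correlated at r = 0.989 to 0.996 and arrays of different groups at 0.877 to 0.883, and the first principal component over the 6 arrays carried 92.8% of the variance. The share of probes detected at a detection p under 0.05 was 36.1%, 38.6% and 37.0% without LPS and 36.9%, 36.7% and 36.4% with LPS, and the groups overlapped (two-sided exact permutation p = 0.7, where 3 against 3 arrays cannot go below 0.1). At a detection p under 0.01 it was 31.9%, 33.7% and 32.6% without LPS and 29.6%, 30.9% and 29.6% with LPS, and the groups did not overlap (p = 0.1 in the same exact test).

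Of 9795 genes measured, 5932 passed the test (limma, Benjamini-Hochberg adjusted p under 0.05), which is 60.6%. LPS raised 2172 genes, 22.2% of those measured, and lowered 3760, 38.4%. The counts in the gene lists below are best read against these shares. Counting only changes of at least 2-fold, 1058 genes were higher (10.8%) and 1196 lower (12.2%). The rises reached further than the falls. At 4-fold or more there were 460 genes higher and 252 lower, at 8-fold or more 221 and 59, at 16-fold or more 114 and 11, and at 32-fold or more 64 and 2. In all, 37 genes were at least 64-fold higher by the fitted value and 0 at least 64-fold lower. The median fold change, on the log2 scale used for all differences below, was 0.97 among the genes that rose and -0.74 among those that fell. It was -0.14 over all genes, so small differences are best read against that value rather than against 0. The balance of small rises and falls depended on how the arrays were scaled to each other. Median scaling in place of quantile normalization gave 1508 genes higher and 5241 lower, with a median over all genes of -0.42. Median scaling over the detected probes alone gave 3101 higher and 2769 lower, with a median of 0.05. The share of calls that were rises was therefore 36.6%, 22.3% or 52.8%, and the gene lists below whose balance of rises and falls turned under either scaling have those counts beside them.

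**Figure D1:**
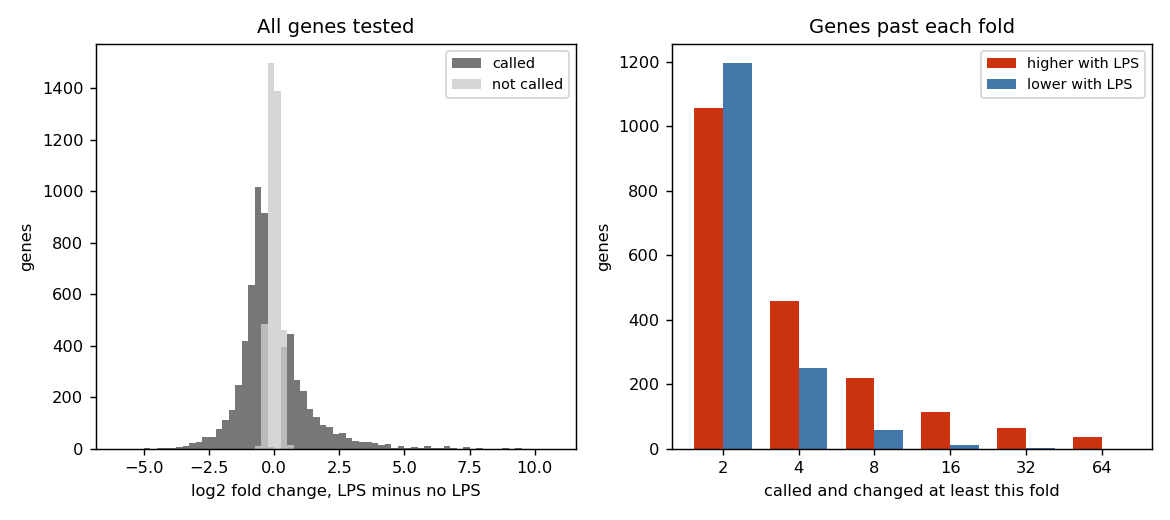
Left, number of genes by log2 fold change (LPS minus no LPS, equal bins) among genes that passed the test (dark) and those that did not (light). Right, genes that passed and changed by at least the fold on the horizontal axis, higher (red) or lower (blue) with LPS. Falls are more numerous at 2-fold (1196 against 1058) and rises at every larger step, up to 37 against 0 at 64-fold.

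The largest rises began low, and some of them ended near the top of the arrays' range. Acod1, whose enzyme makes the antimicrobial metabolite itaconate, measured 4.85, 4.59 and 4.73 log2 units on the arrays without LPS and 15.03, 15.04 and 15.12 with LPS. Ifi205, an interferon-inducible DNA sensor family member, went from 5.09, 4.55 and 4.66 to 13.71, 13.57 and 13.80, at least 351-fold higher. Saa3, the acute phase serum amyloid gene of macrophages, was already detected without LPS at 5.84, 6.13 and 6 and reached 14.81, 14.75 and 14.65. None of these groups overlapped, and the spread within each was under a log2 unit. These genes were picked for large rises, and the groups did not overlap for 65.2% of all genes measured. Cxcl10, the chemokine that draws activated T cells, was near background on 2 arrays without LPS (4.61 and 4.53) and at 6.05 on the other, against 15.18, 15.28 and 15.35 with LPS. Quantile normalization gives all 6 arrays the same highest value, 15.35, and 54 genes that rose had a mean above 14 with LPS, so the folds of the brightest genes are limited by the range.

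**Figure D2:**
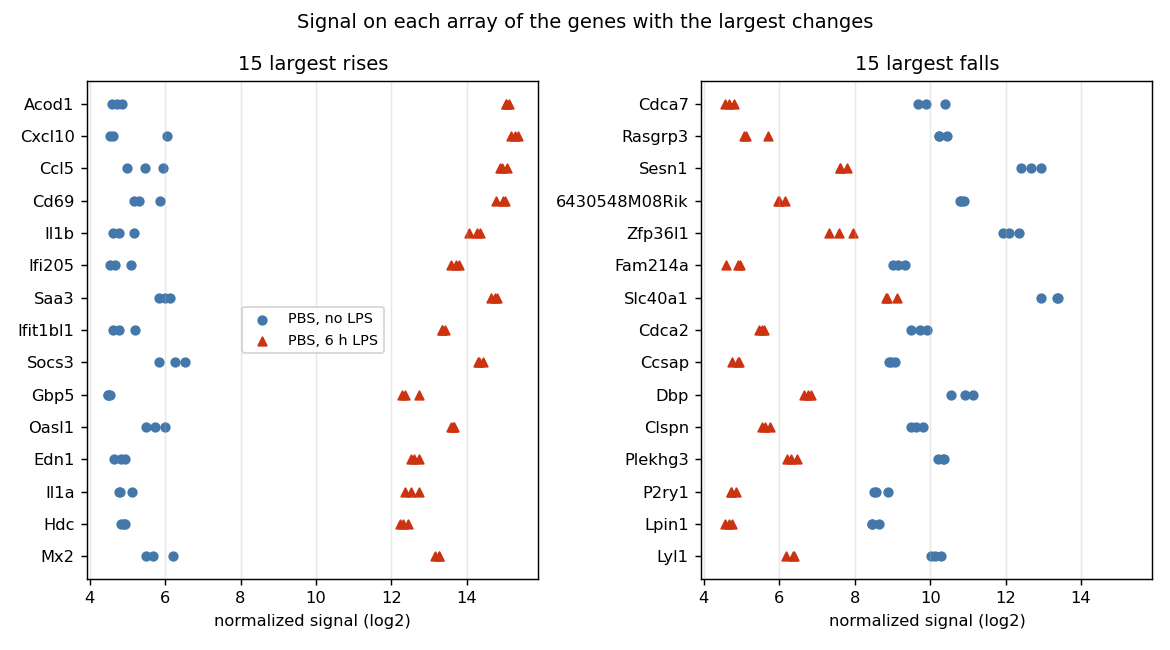
Normalized signal (log2) on each of the 6 PBS arrays for the 15 genes with the largest rise (left) and the 15 with the largest fall (right) among genes that passed the test. Blue circles are the 3 arrays without LPS and red triangles the 3 arrays with 6 h of LPS. The groups do not overlap for any of the 30 genes, which were picked for large changes. Among all genes measured they do not overlap for 65.2%.

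Some of the largest falls ended near background and others well above it. Cdca7, a Myc and E2F target tied to DNA methylation in dividing cells, fell from 10.40, 9.68 and 9.89 to 4.68, 4.56 and 4.79, at least 26.5-fold. Sesn1, a stress-induced inhibitor of mTORC1, fell from 12.94, 12.40 and 12.67 to 7.62, 7.79 and 7.62. Slc40a1, which encodes ferroportin, the iron exporter of cells, fell from 13.38, 12.93 and 13.37 to 8.82, 8.85 and 9.12 (-4.30 ± 0.16). Among the other large falls were Rasgrp3, an activator of Ras and Rap (at least 29.7-fold, detected on 1 of 3 LPS arrays), Zfp36l1, an mRNA decay factor (-4.51 ± 0.18), Dbp, a transcription factor of the circadian clock's output (-4.12 ± 0.15), Plekhg3 (-3.97 ± 0.16), Lpin1, a phosphatidate phosphatase (at least 9.60-fold), P2ry1, a receptor for ADP (at least 10.5-fold), and Lyl1, a haematopoietic transcription factor (-3.83 ± 0.19). Cdca2 (-4.18 ± 0.14) and Clspn (-4.02 ± 0.13), both genes of dividing cells, were also among the 15. The second probe of Sesn1, Zfp36l1, Lpin1 and Plekhg3 fell too.

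Detection itself switched for many genes. A switch was counted when a gene's probe was detected on all 3 arrays of one group and on none of the other. By this rule 230 genes were on only with LPS, 224 of which passed the test, and 307 were on only without LPS, 293 of which passed. Each met the detection filter through the group where it was on, and the same arrays gave switch and test. Passing is therefore no separate support for a switch. The genes on only with LPS included Acod1, Ifi205, Ifit1bl1 (at least 278-fold higher), Gbp5, Edn1 (endothelin-1), Il1a, Hdc, the serine protease inhibitor Serpina3f (at least 89.0-fold), Cxcl9 and Cav1, the coat protein of caveolae (at least 61.7-fold). The genes on only without LPS included Cdca7, Ccsap (at least 13.1-fold lower), Aunip (at least 12-fold), Cdkn2b, which encodes the cell cycle inhibitor p15 (at least 10.2-fold), P2ry1, Lpin1, the chemokine receptor Cxcr4 (at least 8.05-fold) and Depdc1b. At a stricter detection p of 0.01, 483 genes were on only without LPS. Among all called genes, 587 were detected on no array of the dimmer group and 341 on only some of them, and folds of such genes are given as lower bounds.

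The receptor for LPS and its adaptors mostly rose by small amounts. Of 15 genes of the TLR4 complex, 13 rose and 1 fell, with a median of 0.97. With median scaling 8 rose and 2 fell, with a median of 0.63. Tlr4 itself measured 10.32, 9.79 and 10.13 without and 9.63, 9.78 and 10.01 with LPS and did not pass (-0.27 ± 0.15). The co-receptor Cd14 rose from 13.10, 13.53 and 13.08 to 14.46, 14.50 and 14.25, and the adaptor Myd88 by 1.64 ± 0.13. The kinase gene Irak2 rose by 2.17 and Irak3, which encodes the inhibitory IRAK-M, by 1.54. The gene that fell was Irak1, an early kinase of the pathway (-0.57), a call that was lost without any of 5 of the 6 arrays and that neither of its 2 other probes gave. Sensors of other microbial molecules were also mostly higher. Of 24 such genes 18 rose and 2 fell, with a median of 1.94, or 1.83 with genes that were undetected on an array of the dimmer group set at their lower bound. Clec4e, the Mincle receptor for mycobacterial glycolipid, rose from 7.48, 7.61 and 7.25 to 12.61, 12.65 and 12.83, Tlr2, the receptor for bacterial lipoproteins, by 4.37, and the RNA sensor Ddx58, which encodes RIG-I, by 4.27. The RNA sensor gene Ifih1, which encodes MDA5, was at least 11.2-fold higher. Tlr13, the receptor for bacterial ribosomal RNA, fell by 0.96.

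The NF-kB system rose from its subunits to its inhibitors. Of 15 subunit and inhibitor genes 13 rose and 0 fell, with a median of 2.79. Nfkbia, the gene of IkBa, which holds NF-kB in the cytoplasm, rose from 8.91, 9.57 and 8.97 to 13.71, 13.61 and 13.33 (4.40 ± 0.18), and the atypical inhibitor gene Nfkbiz rose by 5.26 ± 0.14. Of 17 brakes on Toll-like receptor and NF-kB signalling 12 rose and 2 fell, with a median of 2.46. Socs3, which inhibits signalling from IL-6 family receptors, rose from 6.53, 5.85 and 6.26 to 14.29, 14.32 and 14.42. Tnfaip3, which encodes the ubiquitin-editing enzyme A20, rose by 3.37 ± 0.13 and Zc3h12a, which encodes the RNase Regnase-1, by 3.80. The 2 that fell were Tnfaip8l2 (-0.71) and Sigirr (at least 1.79-fold). MAP kinase phosphatases split, with 5 of 11 higher and 5 lower (45.5% each, against 22.2% and 38.4% of all genes). Their median turned from -0.23 to 0.04 with median scaling over the detected probes. Dusp2 rose by 3.65 and Dusp1 from 11.05, 11.08 and 10.78 to 13.73, 13.74 and 13.71, while Dusp6, which acts on ERK, fell from 12.27, 12.21 and 12.35 to 9.51, 9.67 and 9.58. Dusp3, Dusp4 and Dusp7 fell by 1.93, 1.62 and 1.42, but none of the 3 other probes of Dusp3 passed (-0.29 to -0.04).

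The promoters of these genes were searched for the core of the NF-kB site, here the letters GGGNNTTTC on either strand, in the 300 bases from 250 before to 50 after the first listed start (RefSeq, build GRCm38.p6). A match describes the letters and not a bound site. The core was in 4.46% of the 27025 promoters of the table, in 4.44% of the 7997 measured genes with a promoter there, in 25% of the NF-kB subunit, inhibitor and brake genes (6 of 24), in 18.5% of the cytokine and chemokine genes (10 of 54), in 33.3% of the GBP and immunity-related GTPase list described below (3 of 9) and in 4.02% of the genes that did not pass. On the forward strand alone it was in 8.33%, 7.41% and 11.1% of these 3 gene sets, in that order, and in 2.19% of measured genes. The promoter of the NF-kB list and that of the cytokine and chemokine lists with the largest rise among holders of the core are shown because they carry this match in a gene that changed strongly, with the matches in capitals. Nfkbia lies on the minus strand at chr12:55492598-55492897, with 3 matches starting at -113, -28 and 3 from the listed start. Cxcl9, a chemokine for T cells that was at least 65.9-fold higher, lies on the minus strand at chr5:92328030-92328329, with 1 match at -154.
Nfkbia: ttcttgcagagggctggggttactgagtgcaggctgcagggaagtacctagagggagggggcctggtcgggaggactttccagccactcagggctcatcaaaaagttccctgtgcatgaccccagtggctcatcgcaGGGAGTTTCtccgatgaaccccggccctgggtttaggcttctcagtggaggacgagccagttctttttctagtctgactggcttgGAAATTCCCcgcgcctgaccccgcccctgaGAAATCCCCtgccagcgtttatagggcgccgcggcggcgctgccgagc
Cxcl9: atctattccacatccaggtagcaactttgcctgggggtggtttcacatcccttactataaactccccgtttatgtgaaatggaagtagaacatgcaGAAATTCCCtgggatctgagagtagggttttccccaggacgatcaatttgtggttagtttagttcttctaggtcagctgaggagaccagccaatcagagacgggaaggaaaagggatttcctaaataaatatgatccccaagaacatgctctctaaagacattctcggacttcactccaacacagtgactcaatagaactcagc

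Transcription factors of the early response and of the macrophage lineage went both ways. Of 18 immediate early and AP-1 genes 8 rose (44.4%) and 5 fell (27.8%) at 6 h, against 22.2% and 38.4% of all genes. The AP-1 partner genes Batf and Junb rose by 3.02 and 2.67, while Jun fell from 9.87, 9.86 and 9.57 to 8.34, 8.16 and 8.37 and Egr2 from 10.33, 9.72 and 9.99 to 8.04, 8.28 and 8.11. Egr3, a close relative, was 1.99 lower by one probe, and its other probe did not pass (0.29). Of 13 IRF and STAT genes 9 rose (69.2%) and 2 fell (15.4%). Irf7, which amplifies interferon production, rose from 6.34, 5.32 and 6.08 to 12.21, 12.09 and 12.15 (6.24 ± 0.19) and Stat2 by 3.51 ± 0.14. Irf3, the factor activated by TRIF, fell by 0.69 ± 0.12, and 1 of its 2 other probes did not pass. Of 20 lineage and nuclear receptor genes 9 rose (45%) and 5 fell (25%, below the 38.4% of all genes), or 6 and 7 with median scaling. Pparg, a nuclear receptor of lipid metabolism and alternative activation, fell from 10.47, 10.51 and 10.72 to 7.40, 7.42 and 7.25. Bhlhe40 fell by 2.54 and Cebpa, a factor of myeloid differentiation, at least 3.08-fold, while Cebpb, its inflammatory relative, rose by 2.02 and Nr1h3, which encodes the oxysterol receptor LXRa, by 1.61.

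Most cytokine genes rose. The subunit gene Il27 was detected only with LPS, at least 72.4-fold higher. So was Il6, at least 25.5-fold, at 4.51, 4.51 and 4.56 without LPS and 9.8, 10 and 9.93 with LPS. Il12a, a subunit of IL-12, stayed at the edge of detection, at 5.13, 5.33 and 5.18 with LPS and detected on 1 of the 3 arrays. Osm did not pass (-0.14). Of 12 genes of the IL-1 family and inflammasome 11 rose and 0 fell. Besides Il1b and Il1a, the natural antagonist Il1rn rose by 4.17 ± 0.12, Il18 by 3.49 ± 0.14 and Casp4, which senses LPS inside the cell, by 3.47 ± 0.14, while the member that did not pass was the adaptor gene Pycard (0.10). Of 10 TNF superfamily ligands 7 rose and 1 fell. Tnf rose from 8.94, 9.57 and 8.81 to 14, 13.91 and 13.89, Tnfsf10, the death ligand TRAIL, was at least 25.2-fold higher and Tnfsf4, the costimulator OX40L, at least 13.2-fold. Tnfsf14, known as LIGHT, fell at least 2.01-fold. Among 16 growth and colony-stimulating factors 9 rose and 3 fell, with Edn1 at least 166-fold and the inhibitory cytokine Il10 4.96 ± 0.16 higher and the angiogenic factor Vegfa 1.61 ± 0.14 lower.

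Chemokine genes rose widely, and their receptors were divided. Of 7 CXC genes 6 rose and 0 fell (median 3.58, or 3.17 with lower bounds), and of 14 CC and CX3C genes 13 rose and 1 fell (median 2.03, or 1.76 with lower bounds). The neutrophil chemokine Cxcl2 went from 4.91, 5.94 and 5.23 to 10.44, 10.58 and 10.36. Ccl2, the monocyte chemokine, was high before LPS at 11.40, 12.06 and 11.60 and rose to 14.03, 14.13 and 14.22. Of 10 chemoattractant receptors 5 rose and 2 fell, or 4 and 4 with median scaling. Fpr2, a receptor for formylated peptides and serum amyloid, rose from 6.45, 6.18 and 6.18 to 12.68, 12.89 and 12.90. Cxcr4 fell from 8.13, 8.27 and 8.43 to background, and Cxcr3, the receptor for Cxcl9 and Cxcl10, fell by 1.09 ± 0.14. Among cytokine receptors 9 of 18 rose and 4 fell. Il15ra, which presents IL-15, was at least 43.1-fold higher and Il13ra1 rose by 3.45 ± 0.13, while the shared IL-6 receptor chain Il6st fell by 1.19 ± 0.18. The receptor of interferon-gamma moved apart in its 2 chains, with Ifngr1 lower by 1.26 ± 0.10 and Ifngr2 higher by 0.83.

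The interferon-stimulated families rose. All 22 measured genes of the OAS, IFIT and Mx list, all 13 of the GBP and immunity-related GTPase list and all 9 of the IFI200 and Schlafen list rose, with medians of 3.68, 5 and 2.73, against 22.2% of all genes that rose. The lists named 27, 20 and 15 genes. Some members, such as Ifit1bl1, Gbp5 and Ifi205, met the detection filter only through arrays with LPS, so the filter favours rises in these shares. Genes of other lists, such as Il6 and Cxcl9, entered in the same way. With lower bounds the first 2 medians were 3.55 and 4.95. In the list of PARP, ADAR and ISGylation genes 11 of 12 rose and 0 fell. Ifnb1, the interferon-beta gene itself, measured 4.5, 4.6 and 4.52 without and 7.74, 7.59 and 8.01 with LPS, at least 5.82-fold higher. Isg15, a ubiquitin-like modifier, rose from 8.32, 7.93 and 8.12 to 14.66, 14.52 and 14.74, and Usp18, the protease that removes it, by 5.98. The guanylate-binding protein gene Gbp2 rose from 8.83, 8.24 and 8.63 to 15.24, 15.22 and 15.10, and Gbp5 was at least 148-fold higher. Of 24 genes of the TRIM family, which holds both antiviral and unrelated ubiquitin ligases, 9 were higher (37.5%, against 22.2% of all genes). Another 9 were lower (37.5%, near the 38.4% of all genes), or 14 with median scaling and 7 over the detected probes. The family ran from Trim30d at 4.35 ± 0.26 to Trim47 at -2.47 ± 0.17.

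The interferon-stimulated response element, taken as the core GAAANNGAA on either strand, was in 8.57% of all promoters of the table and in 7.32% of those of measured genes. It was in 8 of 9 promoters of the GBP and immunity-related GTPase list (88.9%), in 10 of 17 of the OAS, IFIT and Mx list (58.8%) and in 45 of 167 of the genes at least 8-fold higher (26.9%). On the forward strand alone these shares were 44.4%, 47.1% and 15%, against 3.74% of measured genes. On either strand it was, among genes at least 4-fold lower, in 4.43% and among genes that did not pass in 6.09%. It was also in 16.7% of the mitosis list described below (5 of 30), most of which fell, and in 0% of the DNA replication list. The cytokine and chemokine promoters held it in 18.5% and the NF-kB set in 12.5%. For the OAS, IFIT and Mx list and the GBP list, the promoter with the largest rise among holders of the core is shown with the matches in capitals. Isg15 lies on the minus strand at chr4:156200769-156201068, where 3 overlapping matches start at -78, -72 and -66. Gbp5 lies on the plus strand at chr3:142496684-142496983, with 1 match on the opposite strand at -164.
Isg15: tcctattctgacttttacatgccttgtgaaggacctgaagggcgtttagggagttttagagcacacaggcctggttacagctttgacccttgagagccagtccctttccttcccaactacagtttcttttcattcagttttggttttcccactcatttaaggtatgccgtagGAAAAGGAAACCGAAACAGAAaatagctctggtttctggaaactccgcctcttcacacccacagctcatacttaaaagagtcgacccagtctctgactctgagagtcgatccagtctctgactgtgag
Gbp5: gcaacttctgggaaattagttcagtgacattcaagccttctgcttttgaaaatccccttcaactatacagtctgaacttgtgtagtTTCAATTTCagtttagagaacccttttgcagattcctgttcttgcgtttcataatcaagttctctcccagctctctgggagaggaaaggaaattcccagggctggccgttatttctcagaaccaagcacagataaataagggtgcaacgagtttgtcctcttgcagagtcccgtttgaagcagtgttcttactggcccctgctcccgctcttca
The AP-1 site TGANTCA, which reads the same on both strands, was in 16.2% of promoters of the genes at least 8-fold higher. It was in 5.36% of measured genes, 7.93% of all promoters of the table and 4.93% of genes at least 4-fold lower. The TATA box TATAAA was in 21.6% of the genes at least 8-fold higher and in 7.67% of measured genes. All promoters of the table held it in 14.2% and genes at least 4-fold lower in 11.8%. The TATA box was in 25.9% of the cytokine and chemokine promoters.

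**Figure D3:**
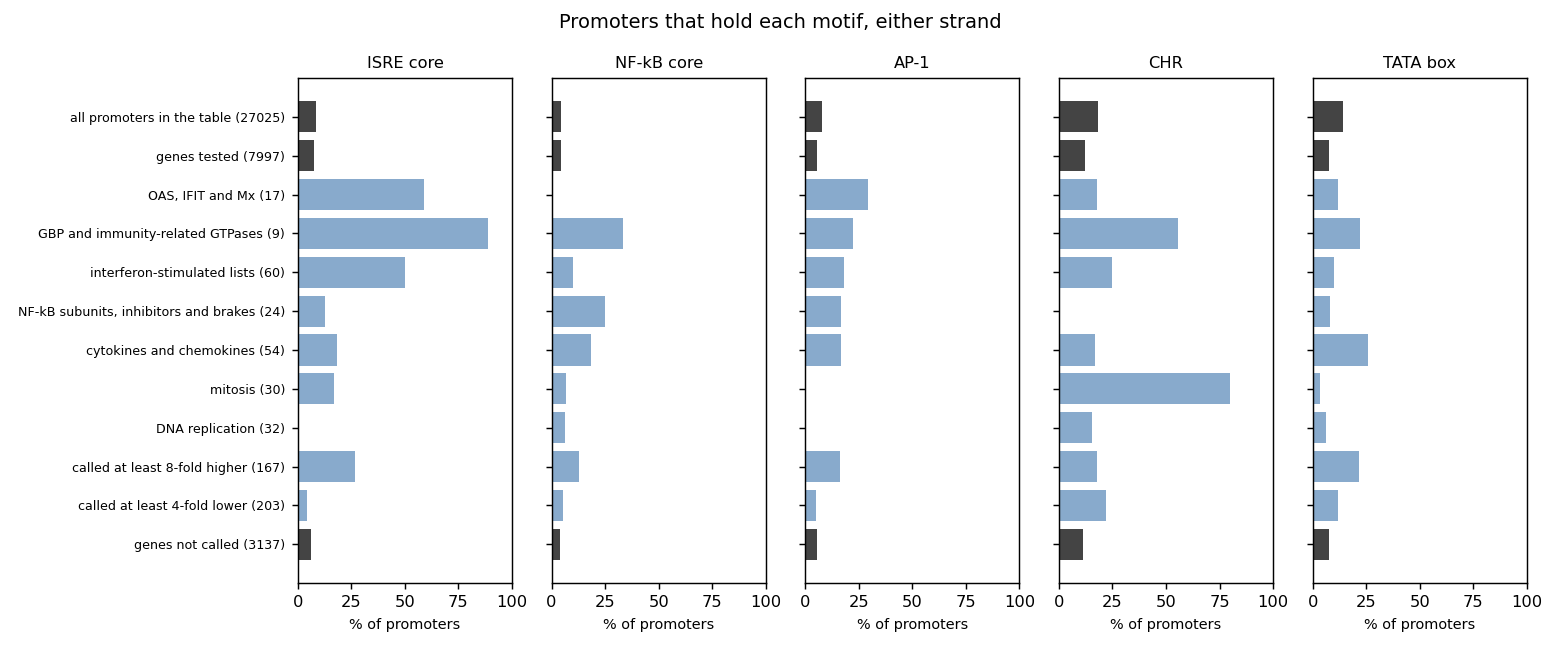
Share of promoters (percent, horizontal axis) that hold each of 5 motifs on either strand, for sets of genes on the vertical axis with the number of promoters in parentheses. Dark bars are all promoters of the table, all measured genes and the genes that did not pass the test. The ISRE core is in 88.9% of the GBP list and the CHR, the cell cycle homology region, in 80.0% of the mitosis list.

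Some of the genes that rose or fell lay next to each other. Among 9784 genes placed in order along the chromosomes, 45 runs of at least 3 neighbouring measured genes were at least 2-fold higher (169 of the 1058 genes that rose this far), and 27 such runs were lower (88 of 1196). The longest run, on chromosome 1, held the 8 genes Aim2, Ifi214, Ifi213, Ifi207, Ifi204, Mndal, Ifi211 and Ifi205, from Ifi207 (1.68) to Ifi205, at least 351-fold higher. Another run on chromosome 1 held Sp110, Sp140 and Sp100, nuclear body genes, with Sp140 at 4.19 ± 0.14. The OAS cluster of chromosome 5 gave a run of 7, among them Oas3, at least 11.7-fold higher. On chromosome 11, 7 genes from Irgm1 to Olfr56 rose together, and a run of 4 held the chemokine genes Ccl2, Ccl7, Ccl12 and Ccl8. On chromosome 3 the guanylate-binding genes Gbp5, Gbp7, Gbp3, Gbp2b and Gbp2 formed a run, the weakest of them Gbp2b, at least 1.57-fold higher. Runs that fell included the histone genes H2ac21 (-2.33 ± 0.19), H2ac20 (-1.86 ± 0.12) and H2bc21 (-1.29 ± 0.17) with their neighbours Sv2a and Bola1 on chromosome 3, and 5 genes on chromosome 4 from Tbc1d2 (-3.63 ± 0.15) to Alg2 that include the TGF-beta receptor gene Tgfbr1 (-1.25 ± 0.17). Near-identical members of the IFI200, OAS and GBP families can share probe sequence, so single values within these runs are uncertain. The other probes of H2ac20 (0.10) and H2bc21 (-0.25) did not pass, so the histone run depends on the probe chosen.

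**Figure D4:**
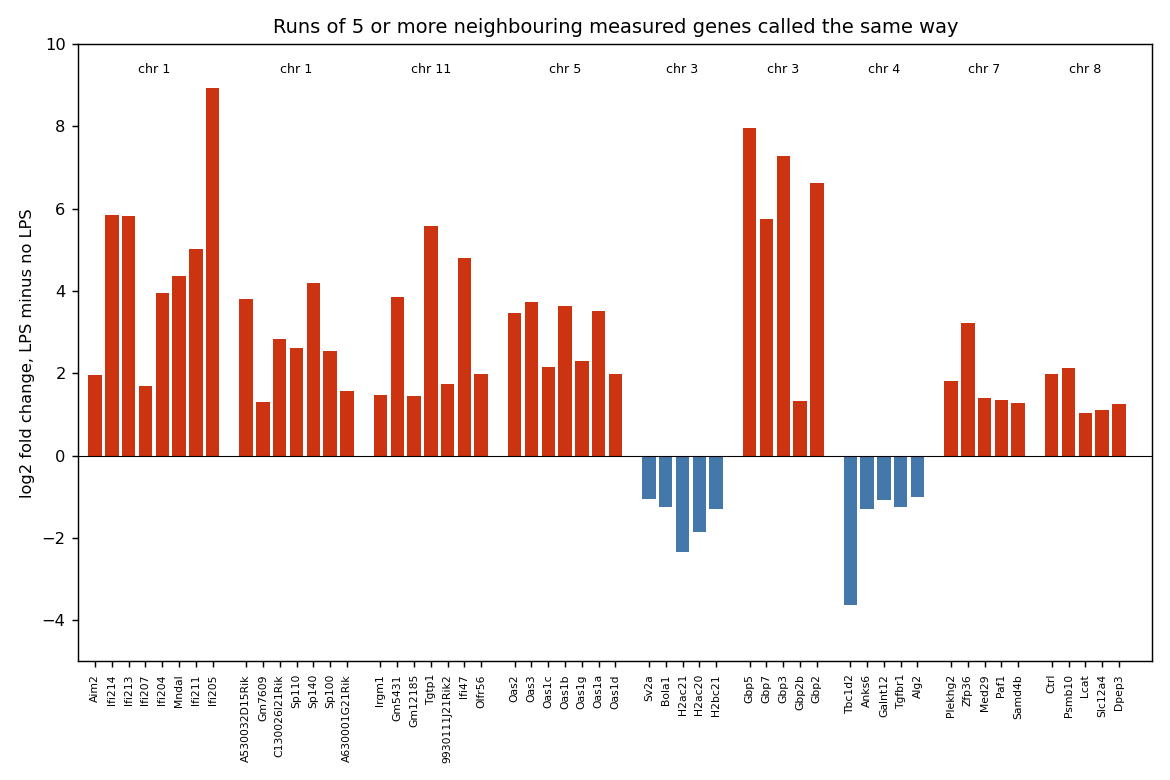
Log2 fold change (LPS minus no LPS, vertical axis) of each gene in the runs of 5 or more neighbouring measured genes that all passed the test and changed at least 2-fold the same way, in chromosomal order. Red bars rose and blue bars fell, and the chromosome is given above each run. The longest run has 8 genes and ends with Ifi205. Bars are fitted values, and those of genes undetected on an array of the dimmer group are not bounds.

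Antigen presentation and costimulation rose. Of 19 class I genes 14 rose and 1 fell (median 1.25). The peptide transporter gene Tap1 went from 6.99, 7.07 and 7.21 to 11.36, 11.07 and 11.37, and the immunoproteasome genes Psmb9 and Psmb10 rose by 2.27 and 2.14. Of 23 genes of the constitutive proteasome 3 rose and 5 fell, and the sign of their median turned from -0.10 to 0.26 with median scaling over the detected probes, where 11 rose and 0 fell. Of 11 class II genes 8 rose and 1 fell, led by H2-Ab1 at 2.20 ± 0.14. The run of Tap2, H2-Ab1, H2-Aa and H2-Eb1 on chromosome 17 joins both classes. Of 16 costimulation and checkpoint genes 14 rose and 1 fell. The costimulatory receptor Cd40 rose from 8.81, 8.78 and 8.74 to 14.75, 14.75 and 14.71, and the checkpoint ligand Cd274, known as PD-L1, by 4.43. Havcr2, known as TIM-3, fell by 0.82. A further probe of Cd69, an early activation antigen, was at 0.19 and did not pass, against at least 692-fold for the brighter probe.

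**Figure D5:**
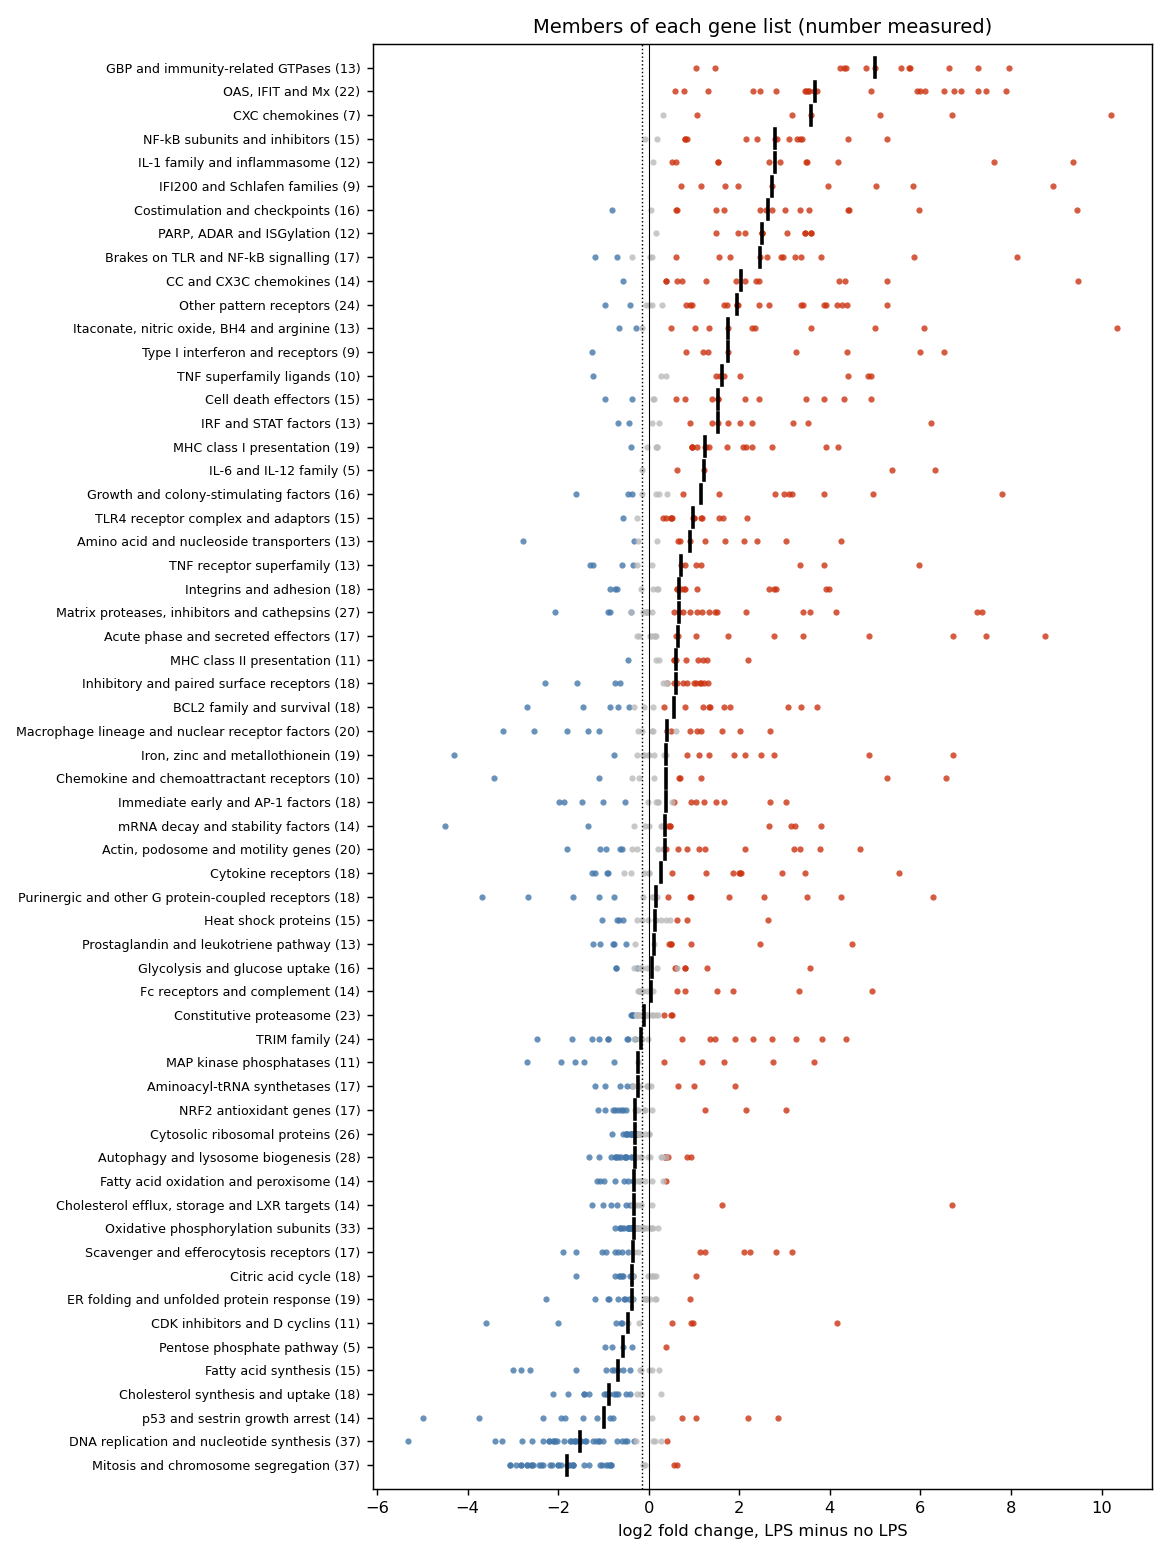
Log2 fold change (LPS minus no LPS) of every measured member of the gene lists reported here, one list per line with the number measured in parentheses, ordered by the list median (black tick). Red points rose, blue points fell and grey points did not pass the test. The dotted line marks the median of all genes, -0.14. Points are fitted values, also for undetected genes. The GBP list lies highest, with a median of 5, and the mitosis list lowest, with -1.80.

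Surface receptors for debris and for pathogens were divided. Of 17 scavenger and efferocytosis receptors 6 rose (35.3%) and 8 fell (47.1%), against 22.2% and 38.4% of all genes. With median scaling over the detected probes 6 rose and 5 fell. Marco, a scavenger receptor for bacteria, rose from 5.94, 6.03 and 5.58 to 8.17, 7.94 and 8.11, and the apoptotic cell receptor Axl by 2.10. The haemoglobin receptor Cd163 went from 7.08, 6.29 and 6.94 to background, at least 2.84-fold lower, and Stab1, which clears modified lipoproteins, fell by 1.60 ± 0.13. Of 18 inhibitory and paired receptors 11 rose and 4 fell, and Cd300lb (-2.29 ± 0.20) and Cd300a (-1.58 ± 0.14) were the lowest. Gpr84, a receptor for medium-chain fatty acids, rose from 6.63, 7.05 and 6.64 to 13.17, 13.01 and 12.95, while Gpr183, the receptor for oxysterols made through Ch25h, fell from 9.50, 9.43 and 9.54 to 6.06, 5.53 and 5.80. Ch25h itself rose from 5.92, 6.16 and 5.65 to 12.63, 12.65 and 12.55. The matrix protease Mmp14 was at least 157-fold higher by its brighter probe, and its other probe (0.12) did not pass. Mmp13, a collagenase, rose by 4.14 ± 0.10, and Plau, the urokinase gene, fell by 2.08 ± 0.22.

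Metabolic genes changed most at single enzymes and transporters. Of 13 genes for itaconate, nitric oxide, tetrahydrobiopterin and arginine 10 rose and 2 fell. Nos2, the inducible nitric oxide synthase, went from 4.90, 5.45 and 5.18 to 11.20, 11.12 and 11.45, the arginine importer Slc7a2 was at least 30.1-fold higher, and Ass1, which remakes arginine from citrulline, rose by 3.59 ± 0.18. Of 16 glycolysis genes 6 rose and 3 fell, the hexose transporter Slc2a6 most, from 10.21, 9.99 and 9.78 to 13.69, 13.50 and 13.44. With median scaling over the detected probes 11 rose and 1 fell, and the list median turned from 0.07 to -0.03 with median scaling. The hexokinase gene Hk1 was 1.28 ± 0.20 higher by one probe, and its other probe (0.39) did not pass. Of 18 citric acid cycle genes 1 rose and 11 fell, or 3 and 3 with median scaling over the detected probes, with Idh1, the cytosolic isocitrate dehydrogenase, from 11.77, 11.75 and 11.85 to 10.13, 10 and 10.40. Of 33 oxidative phosphorylation subunits 20 fell and 0 rose, and of 26 cytosolic ribosomal proteins 18 fell and 0 rose, with medians of -0.33 and -0.30. These small falls turned with the scaling. With median scaling over the detected probes 2 rose and 1 fell among the oxidative phosphorylation genes and 2 rose and 2 fell among the ribosomal genes. Prostaglandin synthesis rose at Ptges, at least 21.3-fold, and Ptgs2, which encodes COX-2, at least 3.62-fold. Of the 13 genes of that list 6 rose (46.2%, against 22.2% of all genes) and 5 fell (38.5%, near the 38.4% of all genes). With median scaling 3 rose and 6 fell, and the median turned from 0.11 to -0.07.

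Iron handling moved strongly at the exporter and at secreted proteins. Besides the fall of Slc40a1, Lcn2, whose product binds bacterial siderophores, was at least 97.6-fold higher and Cp, the ferroxidase ceruloplasmin, at least 25.3-fold. The metallothionein gene Mt2 rose by 2.47 ± 0.14 and the transferrin receptor gene Tfrc fell by 0.77 ± 0.20, a call lost with median scaling over the detected probes (-0.45). Among 19 iron, zinc and metallothionein genes 9 rose and 2 fell. Of 13 amino acid and nucleoside transporters 9 rose and 2 fell, with the cystine importer Slc7a11 3.04 ± 0.17 higher (1 of its 3 other probes, at 0.27, did not pass) and the glutamine importer Slc38a2 2.77 ± 0.14 lower.

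Lipid synthesis genes fell. Of 18 cholesterol synthesis and uptake genes 15 fell and 0 rose (median -0.88), and of 15 fatty acid synthesis genes 10 fell and 0 rose (median -0.68). With median scaling over the detected probes 13 and 9 fell and 0 and 1 rose. The sterol carrier gene Stard4 measured 10.84, 10.22 and 10.53 without and 8.15, 8.44 and 8.67 with LPS. The elongase gene Elovl6 fell from 8.92, 9.12 and 9.31 to 5.80, 6.24 and 6.31, and the fatty acid activating gene Acsl3 by 2.83 ± 0.14. Among efflux, storage and LXR target genes 2 of 14 rose and 6 fell (42.9%, against 38.4% of all genes), or 3 and 3 with median scaling over the detected probes, with Apoe, the apolipoprotein of macrophages, lower by 0.71 ± 0.12, a call lost with median scaling over the detected probes (-0.25).

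Cell division genes fell together. Of 37 mitosis genes 33 fell and 2 rose (median -1.80), and of 37 DNA replication genes 32 fell and 1 rose (median -1.52), against 38.4% of all genes that fell. Kif23, a kinesin of cytokinesis, fell from 12.21, 11.73 and 12.28 to 9.01, 9.02 and 8.99, although 1 of its 3 other probes did not pass (-0.07). Cdc20, which activates the anaphase-promoting complex, fell from 10.33, 9.74 and 9.94 to 7.24, 6.95 and 6.98, and all 3 of its other probes fell. Uhrf1, which guides maintenance DNA methylation, fell from 11.42, 10.99 and 11.27 to 8.08, 7.92 and 7.93, and E2f2, a factor of S phase entry, at least 9.92-fold. The 2 mitosis genes that rose were Tpx2 (0.55 ± 0.17, and 0.37 and not called without replicate 2 of the PBS arrays without LPS) and Spc24 (0.62 ± 0.15), and the other probe of Spc24 fell (-0.63). Of 11 CDK inhibitors and D cyclins 4 rose and 5 fell, or 4 and 3 with median scaling over the detected probes. Cyclin D2, Ccnd2, rose from 6.80, 7.62 and 7.07 to 10.88, 11.63 and 11.44, although 1 of its other 3 probes did not pass (0.14), and Cdkn1a, which encodes p21, rose by 0.97 ± 0.12. Cdkn2b and Cdkn2c, which encode p15 and p18, fell at least 10.2-fold and by 2.00 ± 0.14. Myc fell at least 1.50-fold.

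The cell cycle homology region, a promoter element of genes expressed in G2 and mitosis, was taken as the letters TTTGAA on either strand. It was in 24 of 30 promoters of the mitosis list (80.0%), against 18.1% of all promoters of the table and 12.1% of measured genes. It was in 55.6% of the GBP and immunity-related GTPase list (5 of 9), 25% of all interferon-stimulated lists and 15.6% of the DNA replication list. Genes at least 4-fold lower held it in 22.2%, genes at least 8-fold higher in 18% and genes that did not pass in 11.1%. On the forward strand alone it was in 53.3% of the mitosis list, 55.6% of the GBP list and 6.36% of measured genes. The promoter of Kif23, the holder with the largest fall, lies on the minus strand at chr9:61946750-61947049, with its match at 3 after the listed start in capitals.
Kif23: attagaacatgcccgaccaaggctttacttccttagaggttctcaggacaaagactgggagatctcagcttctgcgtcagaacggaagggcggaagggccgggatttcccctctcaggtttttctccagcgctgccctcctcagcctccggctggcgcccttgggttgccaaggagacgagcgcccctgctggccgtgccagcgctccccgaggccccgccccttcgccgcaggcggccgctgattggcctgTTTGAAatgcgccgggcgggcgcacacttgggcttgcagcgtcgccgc

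Stress and death genes were mixed. Of 14 genes of p53 targets and sestrins 4 rose and 9 fell (median -1, or -0.87 with lower bounds). The 3 GADD45 genes parted, with Gadd45b from 9.04, 9.77 and 9.55 to 12.52, 12.32 and 12.11 and Gadd45g 2.18 higher, but Gadd45a from 10.44, 10.62 and 10.61 to 6.94, 7 and 6.48. Of 18 survival genes 10 rose and 5 fell. Bcl2a1c rose by 3.71 ± 0.11, and Bcl2 fell at least 6.02-fold. Of 15 death effectors 11 rose and 2 fell, with Daxx at 4.30 ± 0.12, the necroptosis effector Mlkl at 2.13 ± 0.12 and Casp9, the caspase of the apoptosome, at -0.97 ± 0.11 (1 of its 2 other probes, at -0.13, did not pass). Of 19 unfolded protein response genes 1 rose and 10 fell, or 3 and 6 with median scaling over the detected probes, with Herpud1, which serves the degradation of misfolded proteins, from 11.40, 11.43 and 11.47 to 9.14, 9.24 and 9.15 and the chaperone Hspa5 0.90 ± 0.20 higher. Of 15 heat shock genes 3 rose (20.0%) and 4 fell (26.7%), against 22.2% and 38.4% of all genes, and of 17 antioxidant genes 3 rose and 8 fell. With median scaling over the detected probes 7 rose and 2 fell among the heat shock genes and 4 and 4 among the antioxidant genes, and with median scaling the heat shock median turned from 0.14 to -0.11. Hspa1a, an inducible chaperone, rose by 2.64 ± 0.14, and Sod2, the mitochondrial superoxide dismutase, by 2.15 ± 0.11.

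The LPS arrays that followed HDL or cyclodextrin are set beside the PBS LPS arrays here for 4 genes, with no test. These 4 genes followed no stated rule and cannot stand for other genes. Mean signals with LPS after PBS, HDL and cyclodextrin were 15.06 ± 0.05, 14.95 ± 0.04 and 15 ± 0.03 for Acod1 (SD, n = 3 each). For Il6 they were 9.91 ± 0.10, 10.91 ± 0.49 and 11.42 ± 0.07, and for Cxcl2 10.46 ± 0.11, 11.47 ± 0.32 and 11.66 ± 0.29. For Dbp, low in all 3, they were 6.75 ± 0.10, 6.49 ± 0.12 and 5.98 ± 0.17.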

How the data were processed

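RNA of 12 samples was hybridised to Illumina bead arrays, 1 array per sample. The authors exported a non-normalized signal and a detection p-value per probe with GenomeStudio, per the submitters' processing notes, and deposited a table of processed values of the same arrays, for which the sources used here state no normalization. Signals of both deposited tables had mostly lost their decimal mark, another unit than the planned intensity. Of 543372 values 10998 (2.02%) kept the mark. The place was rebuilt from the detection p-value or the digits for 76.6%, and for nearly all others from the curve that joins both tables on an array. Of 10324 known values hidden and placed again 0 were wrong, but that test covers only values with a detection p of 0, and the placing rule was adjusted while it was looked at. In all, 0 columns of per-sample values were left unmapped.

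Background correction and quantile normalization used neqc (limma 3.58.1, R 4.3.3, the detection p-values standing in for control probes, offset 16), followed by log2. Probes with a detection p under 0.05 on at least 3 of 12 arrays were kept, and the probe with the highest mean stood for its gene. Of 45281 probes 34885 had 1 gene symbol in the platform annotation. The filter left 18364 probes, 15497 with 1 symbol, and 9795 genes. A limma model (lmFit, eBayes) over all 12 arrays was tested for LPS against no LPS in PBS cells, with Benjamini-Hochberg adjustment over all genes. It was tested on simulated data. Differences are log2 values ± standard error, n = 3 arrays a group. Where a probe was undetected on an array of the dimmer group, the fold is a lower bound. The brighter group's mean is then compared with a dim level, which on each array is whichever is larger, the probe's signal or the weakest signal among detected probes, averaged over the group. Per the file headers no slide is named, so batches could not be tested.

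Members and lists were chosen with earlier results of these data known. Named genes were the 15 largest rises and falls, the 10 largest switches each way, members of lists of at most 12 genes, in longer lists the 4 called members with the largest change each way and those marked in the lists, and genes in runs of neighbours. Pycard was named after its value was seen. The results of 1 gene list are not reported here. Promoter sequences are RefSeq's, the first listed start of each gene. Alternatives covered background correction, normalization, the detection filter, the choice of probe, the arrays in the model, array weights and each array left out. Precision is limited by having 3 arrays a group.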

Additional observations from a re-analysis of the deposited data

How the results depend on the processing

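Each count of called genes, named gene and list median was recomputed under up to 18 alternatives, 17 of them planned. The promoter shares had 1 alternative, the forward strand only, which moved 29 of 60 of them, and the switches in detection had the stricter detection p and each array left out. Median scaling over the detected probes was added after seeing the data. The number of genes higher stayed between 2010 and 2529 and the number lower between 3430 and 4310, except with median scaling (1508 and 5241) and with median scaling over the detected probes (3101 and 2769). Of the 5932 calls, 5247 and 4933 were kept in the same direction under these. Leaving out 1 array at a time gave 2010 to 2091 genes higher and 3430 to 3628 lower. Genes at least 2-fold lower numbered 787 with normexp without detection p-values and 2022 with median scaling, against 1196. Genes on only without LPS numbered 483 at a detection p under 0.01, against 307. Of 628 named genes, 57 lost their call and 13 gained it under at least 1 alternative, and 13 changed sign with a call in at least 1 of the settings compared. A further 11 changed sign with a call in neither. The sign of called genes changed under median scaling over the detected probes for Cyba (0.15), Gapdh (0.19), Igf1 (0.08), Pdia3 (0.09), Psmc2 (0.11), Psmd1 (0.08), Psmd4 (0.07) and Tkt (0.04), under median scaling for Pex11a (-0.04) and Rpe (-0.10), and with the mean over probes for Spc24 (-0.00) and Tmem132a (-0.35). Pf4, at -0.01 and not called as reported, was called under median scaling over the detected probes (0.46). The list medians that changed sign lay between -0.33 and 0.14 as reported. They were MAP kinase phosphatases (0.04), oxidative phosphorylation (0.06), the constitutive proteasome (0.26), autophagy and lysosome genes (0.02) and cytosolic ribosomal proteins (0.08) under median scaling over the detected probes, the prostaglandin pathway (-0.07), glycolysis (-0.03), Fc receptors and complement (-0.12) and heat shock proteins (-0.11) under median scaling, and heat shock proteins (-0.01) with the mean over probes. With 1 array left out at a time the prostaglandin median ran from -0.01 (without PBS LPS replicate 8) to 0.31 and that of Fc receptors and complement from -0.00 (without PBS no LPS replicate 1) to 0.09. The cause was not tested. No paired analysis was possible because the replicate numbers in the labels run through the series and no number occurs in both groups. A slide block was not run because the headers name no slide. Of 2544 called genes with several probes, 1555 had all other probes called the same way, 937 had a probe that was not called and 52 a probe called the opposite way. Signals near background and near the top of the range understate folds.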

Other observations

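Mononuclear phagocyte genes outside the pathways described above also moved. Among genes of actin and motility 11 of 20 rose and 5 fell, and Marcksl1 rose by 4.66 ± 0.14, with its 3 other probes at 3.74 to 4.51. Of 18 integrin and adhesion genes 11 rose and 3 fell, or 7 and 4 with median scaling, and Vcam1 rose by 3.99 ± 0.13.

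A further 2867 probes that passed the filter had no single gene in the annotation given. Of these 631 were called higher and 749 lower, 262 and 219 of them at least 2-fold, with differences from -4.83 to 7.68. The highest, ILMN_2725927, was at 7.68 ± 0.13 (limma, Benjamini-Hochberg adjusted p = 3.41e-15) and the lowest, ILMN_2735350, at -4.83 ± 0.18 (8.77e-12). They are not in any count of genes.

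Some named genes had probes that moved in opposite directions. Tmem132a was at 2.36 by its brightest probe and at -1.70 by both of its other probes. Npc1, the lysosomal cholesterol transporter, was at -0.84 by its brightest probe and at 1.72 by another, and 1 of its 3 other probes did not pass (-0.19). Which transcripts these probes read was not tested.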
